A study of Mus musculus with 8 samples.

Results

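The 10 genes described here encode histone lysine demethylases outside the KDM4 family: *Kdm1a*, *Kdm2a*, *Kdm2b*, *Kdm3a*, *Kdm3b*, *Kdm5a*, *Kdm5b*, *Kdm6b*, *Kdm7a* and *Phf2*. They were taken by their symbols from the 41325 gene symbols of each library, and all 10 were found. The RNA-seq libraries came from C3H10T1/2, a line of mesenchymal stem cells (MSCs) of the mouse from which fat cells can be made in culture. The control cells (shControl, labelled as wild type) and stable cells with a short hairpin RNA (shRNA) against *Kdm4d* (shKDM4D), *Nfib* (shNFIB) or *Kmt2a*, the gene of MLL1 (shMLL1), were each sequenced before (day 0) and 5 days after the start of adipogenic differentiation. Day 0 was the confluent state, and all 4 lines then received insulin, dexamethasone and isobutylmethylxanthine. Insulin alone followed, and then, before day 5, medium with serum and none of these. Each condition has 1 library, which gives 8 libraries. Where values of all 4 lines follow each other without names, they are in the order shControl, shKDM4D, shNFIB and shMLL1. The knockdown cells were grown from puromycin-resistant clones, and which clone was sequenced and what the control carries are not given in the sources used here, so the effect of a knockdown and the difference between clones cannot be told apart.

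Histone demethylases remove methyl groups from lysines of the histone tails and so take part in opening or closing the genes that lie there. KDM1A (LSD1) is a flavin-dependent enzyme that works on H3K4 inside the CoREST complex, whereas the other members carry a Jumonji domain. KDM5A and KDM5B act on methylated H3K4, KDM3A and KDM3B on H3K9, KDM2A and KDM2B on H3K36, and KDM6B (JMJD3) on H3K27. KDM7A and PHF2 belong to one family with a PHD finger next to the Jumonji domain, and H3K9 is a substrate of both. PHF2 is known as a partner of C/EBPα in fat cell formation, and KDM3A is known for its role in energy metabolism and as a gene induced by low oxygen.

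RPKM counts reads per length of exon and per number of mapped reads of the library. The number of mapped reads, recovered from the values, lay between 15842221 and 38202580. *Nfib* was lower in shNFIB cells by a log2 ratio of -2.10 at day 0 and -2.33 at day 5, and *Kmt2a* in shMLL1 cells by -1.37 and -1.70. *Kdm4d* was covered at day 0 and day 5 by 2 and 13 reads in the control library and by 1 and 4 reads in that of shKDM4D, too few to show the knockdown at day 0. Of 8 mesenchymal markers, 7 had an RPKM over 1 in shControl and shMLL1 cells and 6 in shKDM4D and shNFIB cells. *Nt5e* was at or near 0 in every library, and *Thy1*, at 25.01 and 22.61 RPKM in shControl cells, was between 0.0171 and 0.139 RPKM in shKDM4D and shNFIB cells. The defining markers of blood, endothelial, epithelial, muscle and bone cells were at or near 0 throughout, with a summed level of at most 0.0637 RPKM. The summed level of 7 adipocyte markers at day 5 was 776.6, 38.6, 12.0 and 12.3 RPKM in the 4 lines. Except in the test over the 4 lines, intervals given below are 95% intervals of counting error only, and "rose" and "fell" are used only for a ratio past 2-fold. In these bulk samples, fewer cells with a transcript and less of it per cell cannot be told apart.

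The highest levels belonged to *Phf2* and *Kdm1a*, and the lowest to *Kdm5b* and *Kdm7a*. RPKM is corrected for exon length, here that of all annotated exons of a gene. The order of different genes therefore also depends on which exons their transcripts hold, which was not tested. *Phf2* (chromosome 13, 48801750 to 48871119 of GRCm38, protein coding) had a median of 17.0 RPKM over the 8 libraries and ranged from 13.0 to 20.9. *Kdm1a* (chromosome 4, 136550540 to 136602723) had a median of 13.8 and ranged from 11.7 to 16.1. These medians stood at the percentiles 77.3 and 72.7 among the medians of 11513 genes with over 1 RPKM in at least 1 library. *Kdm2a* (chromosome 19, 4314419 to 4398285) followed with a median of 8.83, then *Kdm3a* (chromosome 6, 71588972 to 71632990) with 8.58, *Kdm6b* (chromosome 11, 69398508 to 69413675) with 6.96, *Kdm3b* (chromosome 18, 34777047 to 34838660) with 6.35 and *Kdm5a* (chromosome 6, 120364124 to 120444574) with 5.55. *Kdm2b* (chromosome 5, 122870665 to 122989823) had a median of 3.85 RPKM. *Kdm5b* (chromosome 1, 134560171 to 134635285) and *Kdm7a* (chromosome 6, 39136623 to 39206789) closed the order with 2.22 and 1.63. All 10 are annotated as protein coding.

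Only the step from *Kdm1a* to *Kdm2a* held in all 8 libraries. *Phf2* was above *Kdm1a* in 6 of 8 libraries, and the order was the opposite at day 5 in shControl and shMLL1 cells. *Kdm6b* and *Kdm3b* exchanged places with the day: *Kdm3b* was the higher one in all 4 libraries at day 0 and *Kdm6b* in all 4 at day 5. *Kdm3b* against *Kdm5a* and *Kdm5b* against *Kdm7a* were each in the order of the medians in 4 of 8 libraries, and these neighbours cannot be ranked. All 10 members had over 1 RPKM in every library with 1 exception, *Kdm5b* in shMLL1 cells at day 0.

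**Figure D1:**
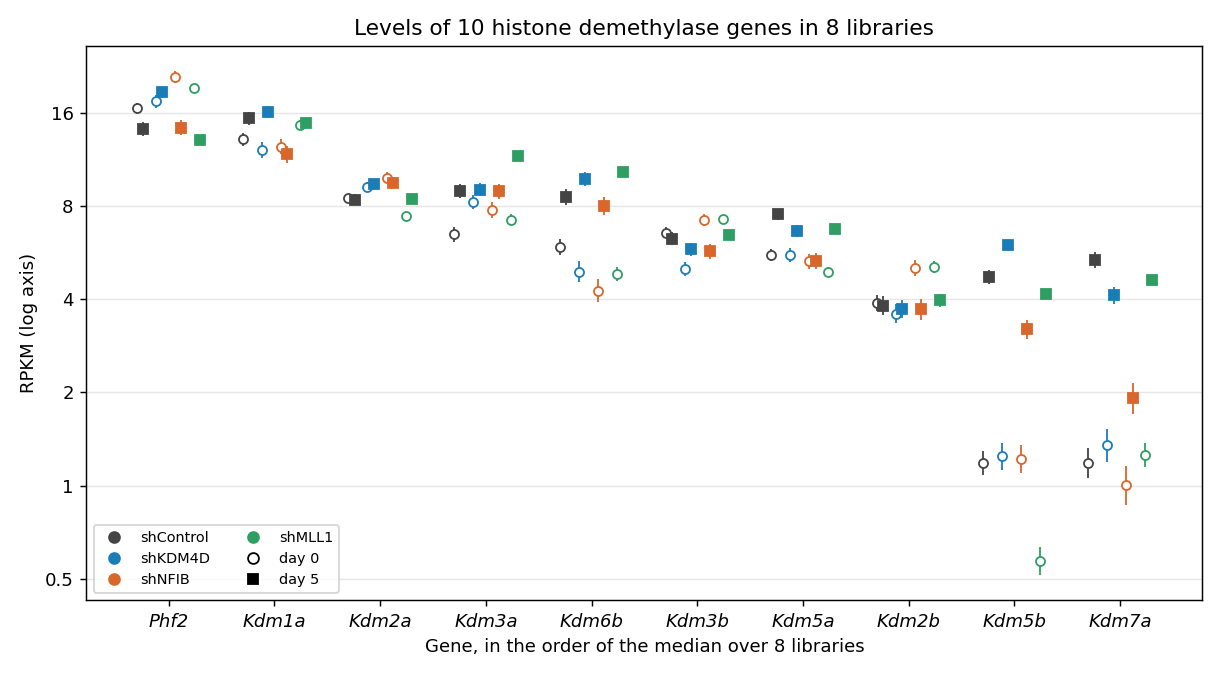
RPKM (log axis) of the 10 genes in the 8 libraries, ordered by the median, with open circles for day 0, filled squares for day 5, colours for the lines and bars for the 95% counting interval. *Kdm5b* and *Kdm7a* have day 5 levels of 1.91 to 5.97 RPKM that lie above their day 0 levels of 0.572 to 1.35, while most other genes stay within a narrow band.

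The spread over the 8 libraries set *Kdm5b* and *Kdm7a* apart from the other members. The highest *Kdm5b* level was 10.4 times the lowest, a log2 range of 3.38, and for *Kdm7a* it was 5.32 times, a log2 range of 2.41. These ranges stood at the percentiles 93.0 and 87.0 among 11247 genes above 0 in every library and over 1 RPKM in at least 1. *Kdm6b* came next with 2.42 times and percentile 62.7. The ranges of *Kdm2a* (1.33 times), *Kdm1a* (1.37 times), *Kdm2b* (1.41 times) and *Kdm3b* (1.45 times) stood at percentiles 5.08, 6.95, 10.0 and 12.4. Counting error widens the range of a gene with few reads, so these percentiles also depend on read number. The ranges were not taken on other scalings. *Kdm5a* (1.53 times), *Phf2* (1.60 times) and *Kdm3a* (1.79 times) lay between. The members' read numbers were between 189 and 4584 per gene and library.

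From day 0 to day 5, the question was which of these genes differ in transcript level between the days in each line. No day 5 library came from cells kept without the differentiation medium. The effect of the medium and that of time after confluence therefore cannot be told apart. *Kdm5b* rose in all 4 lines and *Kdm7a* rose in shControl, shKDM4D and shMLL1 cells, while no member fell by more than 2-fold in any line. Of the 10 members, 2 passed 2-fold in shControl cells, against 21.6% of 11513 genes with over 1 RPKM in at least 1 library. The count was 2 in shKDM4D cells, against 21.2% of all genes, 1 in shNFIB cells, against 17.6%, and 3 in shMLL1 cells, against 27.3%. As a share of the list these counts were close to the background. The median log2 change of the members, on the scale of log2(RPKM + 0.1), was 0.33, 0.23, -0.03 and 0.32 in the 4 lines, beside 0.03, 0.03, 0.09 and 0.17 over all genes.

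**Figure D2:**
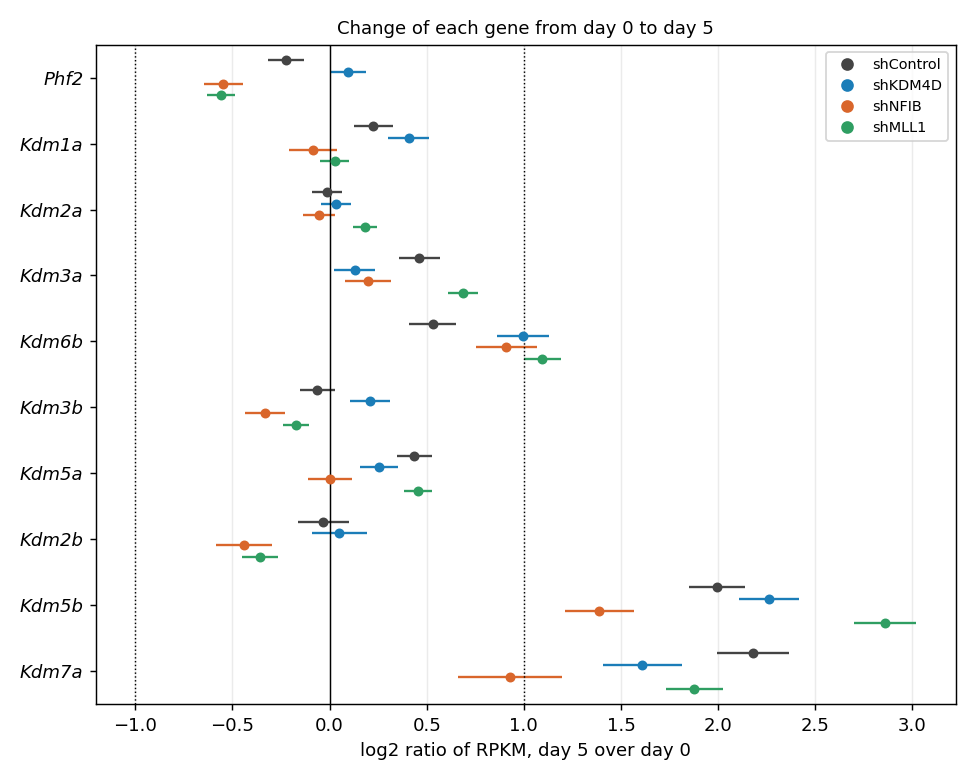
Log2 ratio of RPKM at day 5 over day 0 for each gene (rows) and line (colours), with bars for the 95% counting interval and dotted lines at 2-fold. *Kdm5b* lies between 1.39 and 2.86 and *Kdm7a* between 0.93 and 2.18, to the right of the other genes except *Kdm6b*, which lies between 0.53 and 1.095.

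*Kdm5b* encodes a demethylase of trimethylated H3K4, the mark of active promoters. Its levels in the 4 lines were 1.19, 1.25, 1.22 and 0.572 RPKM at day 0, and the day 5 levels were 4.72, 5.97, 3.20 and 4.15. All 4 day 5 libraries were thus above all 4 day 0 libraries, and the lowest value of all was that of shMLL1 cells at day 0. The rise was 3.98-fold in shControl cells, a log2 ratio of 1.99 (95% interval 1.85 to 2.14). It was 4.79-fold in shKDM4D cells (log2 ratio 2.26, 2.11 to 2.42). The shNFIB cells had the smallest rise, 2.62-fold (1.39, 1.21 to 1.57), and the shMLL1 cells the largest, 7.25-fold (2.86, 2.70 to 3.02). Compared with the change in shControl cells, that in shNFIB cells was smaller by a log2 difference of -0.60 (-0.83 to -0.38) and that in shMLL1 cells larger by 0.87 (0.65 to 1.08). The former was -1.20 on the ratio to *Gapdh*, and the latter, in the line with the low day 0 level, was 0.37 after quantile normalization. For shKDM4D cells the difference was 0.27 (0.06 to 0.48), with 0.71 on the ratio to *Gapdh*. In shNFIB cells the ratio to *Gapdh* put the log2 change at 0.82, under the 2-fold limit, where *Gapdh* itself went from 159 to 235 RPKM.

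*Kdm7a* encodes a demethylase of H3K9 and H3K27. The 4 lines had 1.18, 1.35, 1.01 and 1.26 RPKM at day 0. They had 5.36, 4.11, 1.91 and 4.61 RPKM at day 5, so that shNFIB cells were the lowest at both days. The rise was 4.53-fold in shControl cells (log2 ratio 2.18, 95% interval 2.00 to 2.36), 3.05-fold in shKDM4D cells (1.61, 1.41 to 1.81) and 3.67-fold in shMLL1 cells (1.88, 1.73 to 2.02). In shNFIB cells the day 5 level was 1.90 times the day 0 level (0.93, 0.66 to 1.20), which did not pass 2-fold. The log2 difference from the change in shControl cells was -1.25 (-1.57 to -0.93) in shNFIB cells, and it lay between -1.84 and -1.21 over the other scalings tried. It was -0.57 (-0.84 to -0.30) in shKDM4D cells, with -0.13 on the ratio to *Gapdh*, and -0.30 (-0.54 to -0.07) in shMLL1 cells, with -0.63 after quantile normalization. These differences have no replicate check. The summed adipocyte markers were also far lower in all 3 knockdown lines at day 5 than in shControl cells (776.6 RPKM against 12.0 to 38.6), and their part in the *Kdm7a* levels was not tested.

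*Kdm5b* and *Kdm7a* had the widest ranges over the 8 libraries, and the DNA before their start sites is given here for that reason. RefSeq promoter entries on GRCm38.p6 were matched by symbol for 6 of the 10 members, and not for *Kdm2a*, *Kdm3b*, *Kdm5a* and *Kdm6b*. The 250 bases before the RefSeq start site are printed 5′ to 3′ on the strand of the gene, and in both cases the start lies a few bases from the GENCODE start. Capitals mark the letters TGACG (part of a cAMP response element), TTGGC (part of an NFI site), CACGTG (an E-box) and ACGTG (the core of a hypoxia response element), searched on both strands, of which ACGTG is part of CACGTG and can overlap TGACG.
Kdm5b, chr1:134559928-134560177, plus strand: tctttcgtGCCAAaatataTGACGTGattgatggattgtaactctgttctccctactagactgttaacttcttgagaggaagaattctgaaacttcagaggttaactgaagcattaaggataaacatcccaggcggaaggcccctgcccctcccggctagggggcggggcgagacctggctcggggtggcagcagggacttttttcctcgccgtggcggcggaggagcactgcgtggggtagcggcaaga
Kdm7a, chr6:39206774-39207023, minus strand: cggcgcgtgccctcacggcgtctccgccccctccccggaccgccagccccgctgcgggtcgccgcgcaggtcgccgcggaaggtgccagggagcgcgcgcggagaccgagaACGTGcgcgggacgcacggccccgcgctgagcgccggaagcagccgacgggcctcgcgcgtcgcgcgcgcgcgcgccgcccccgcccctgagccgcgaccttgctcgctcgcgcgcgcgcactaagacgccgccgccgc

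The *Kdm5b* window held 1 TGACG and 1 ACGTG, which share letters, and 1 TTGGC, and the *Kdm7a* window held 1 ACGTG and none of the other 3. Of 32851 promoter windows of this length, 17.8% held TGACG, 41.5% TTGGC, 16.6% ACGTG and 6.02% CACGTG, so that none of these matches is rare. A match of letters is not a binding site. The 2 windows differed in base composition, with 13 CpG dinucleotides and 54.4% G and C before *Kdm5b* and 56 CpG dinucleotides and 82.0% before *Kdm7a*, beside a median of 6 CpG dinucleotides over all windows.

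*Kdm6b* encodes a demethylase of trimethylated H3K27, the mark set by the Polycomb enzymes EZH1 and EZH2. The 4 lines had 5.91, 4.91, 4.26 and 4.82 RPKM of it at day 0 and 8.53, 9.78, 8.01 and 10.3 at day 5. All day 5 levels were above all day 0 levels, and the control cells had the highest level at day 0 but not at day 5. The ratio of the days was 1.44 in shControl cells (log2 ratio 0.53, 95% interval 0.41 to 0.65). In shKDM4D cells it was 1.99 (0.99, 0.86 to 1.13). The shNFIB cells had a ratio of 1.88 (0.91, 0.76 to 1.07), and the shMLL1 cells one of 2.14 (1.095, 1.00 to 1.19). Only in shMLL1 cells did it pass 2-fold, and there it was under 2-fold on all 4 other scalings (log2 ratio 0.89 to 0.98). The log2 difference of shKDM4D from shControl cells was 0.46 (0.29 to 0.64), that of shNFIB cells 0.38 (0.18 to 0.57) and that of shMLL1 cells 0.56 (0.41 to 0.72). On the ratio to *Gapdh* the difference of shKDM4D cells was 0.90. *Kdm6b* was thus the member whose increase was, in these libraries, larger in each knockdown line than in the control cells, with the exception of shNFIB cells on the ratio to *Gapdh*, where the difference was -0.21. The difference in shMLL1 cells was 0.36 after quantile normalization. All 3 differences use the same control libraries, so they are not independent.

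The H3K9 demethylases *Kdm3a* and *Kdm3b* behaved differently from each other. *Kdm3a* had 6.47, 8.24, 7.76 and 7.21 RPKM at day 0 and 8.91, 9.02, 8.92 and 11.6 at day 5. The days did not overlap, and the day 5 level in shMLL1 cells stood above the other 3. The ratio of the days was 1.38 in shControl cells (log2 ratio 0.46, 0.36 to 0.57) and 1.61 in shMLL1 cells (0.69, 0.61 to 0.76), with 1.09 in shKDM4D and 1.15 in shNFIB cells, where the ratio to *Gapdh* turned the direction (log2 ratio -0.37). *Kdm3b* had 6.55, 5.01, 7.18 and 7.24 RPKM at day 0 and 6.27, 5.79, 5.71 and 6.42 at day 5. Its days overlapped, and its ratio was above 1 in shKDM4D cells (log2 ratio 0.21, 0.11 to 0.31) but below 1 in both shNFIB (-0.33, -0.44 to -0.23) and shMLL1 cells (-0.17, -0.24 to -0.11). Of the exon bases of *Kdm3b*, 24.6% overlap *Gm26538* on the opposite strand, and whether reads were counted by strand is not given in the sources used here. The share was 8.74% for *Kdm2b* and at most 4.11% for the other members.

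The H3K4 demethylases *Kdm1a* and *Kdm5a* varied little. *Kdm1a* had 13.1, 12.1, 12.4 and 14.6 RPKM at day 0 and 15.3, 16.1, 11.7 and 14.9 at day 5. The ratio of the days was 1.17 in shControl cells (log2 ratio 0.23, 0.13 to 0.32) and 1.33 in shKDM4D cells (0.41, 0.30 to 0.51), and the intervals included 0 in shNFIB and shMLL1 cells. *Kdm5a*, the relative of *Kdm5b*, had 5.55, 5.56, 5.29 and 4.90 RPKM at day 0 and 7.51, 6.63, 5.31 and 6.71 at day 5. Its ratio was 1.35 in shControl (0.44, 0.35 to 0.53), 1.19 in shKDM4D, 1.00 in shNFIB (0.00, -0.11 to 0.12) and 1.37 in shMLL1 cells. In shNFIB cells neither gene was higher at day 5 on any of the 4 other scalings.

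The H3K36 demethylases *Kdm2a* and *Kdm2b* bind unmethylated CpG islands through a CXXC domain, and KDM2B brings a Polycomb complex (PRC1.1) to them. *Kdm2a* had 8.45, 9.22, 9.88 and 7.40 RPKM at day 0 and 8.39, 9.43, 9.50 and 8.41 at day 5. In no line did the day ratio of RPKM of *Kdm2a* leave the band from 0.962 to 1.14. *Kdm2b* had 3.90, 3.59, 5.05 and 5.08 RPKM at day 0 and 3.81, 3.72, 3.72 and 3.96 at day 5, so that the 4 lines were closer to each other at day 5. The *Kdm2b* ratio in shNFIB cells was 0.736 (log2 ratio -0.44, -0.59 to -0.30), that in shMLL1 cells was 0.780 (-0.36, -0.45 to -0.26), and the intervals of the other 2 lines included 0.

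*Phf2*, the most abundant member, had 16.5, 17.4, 20.9 and 19.2 RPKM at day 0 and 14.2, 18.6, 14.3 and 13.0 at day 5. The day 5 level was lower in 3 lines and not in shKDM4D cells. The ratio of the days was 0.857 in shControl cells (log2 ratio -0.22, -0.32 to -0.13) and 1.07 in shKDM4D cells (0.10, 0.01 to 0.19). The shNFIB cells had a ratio of 0.685 (-0.55, -0.65 to -0.44), close to the 0.679 of the shMLL1 cells (-0.56, -0.63 to -0.49). The summed level of the 10 members was 68.6 to 75.0 RPKM at day 0 and 72.3 to 89.1 at day 5. Within this sum, *Phf2* made up 24.0% to 27.8% at day 0 and 15.5% to 20.9% at day 5. *Kdm5b* made up 0.792% to 1.81% at day 0 and 4.42% to 6.69% at day 5, *Kdm7a* 1.34% to 1.965% and 2.65% to 6.45%, and *Kdm6b* 5.68% to 8.58% and 10.3% to 12.3%. In each line the share of *Phf2* was smaller at day 5 and those of *Kdm5b*, *Kdm6b* and *Kdm7a* were larger, a comparison within a library that does not depend on the scaling of the total. The share that was gained was largest for *Kdm6b* in shNFIB and shMLL1 cells. In shKDM4D cells the smaller share of *Phf2* came with a slightly higher RPKM, as given above.

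In all, 4 members (*Kdm3a*, *Kdm5b*, *Kdm6b* and *Kdm7a*) had day 5 levels above all day 0 levels and 6 overlapped. Over all genes, 37.6% did not overlap between the days, so the count is close to the background. With median-of-ratios scaling or the ratio to *Gapdh*, *Kdm3a* overlapped as well, and with quantile normalization *Kdm2b* did not overlap, which gives 5 members. The share of all genes on these scalings was not taken. Without the shKDM4D libraries 6 members did not overlap, *Kdm3b* and *Phf2* being added, against 46.4% of all genes. Without the shNFIB libraries it was also 6, with *Kdm1a* and *Kdm5a* added, against 51.9%, and without the shControl or the shMLL1 libraries it was the first 4, against 45.0% and 44.6%.

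The mean change between the days over the 4 lines was tested with limma over all genes, with the line as a block. This test does not ask whether the lines changed alike. The 4 lines carry different knockdowns and are not replicates of a condition, so the spread in this test is that of the change between lines. By Benjamini-Hochberg adjustment, 4 of the 10 members passed an adjusted p of 0.05, against 50.0% of all genes, and the share of members was thus not above the background. *Kdm5b* had a mean log2 change of 2.01 (95% interval 1.47 to 2.56, limma adjusted p = 0.0014), *Kdm7a* one of 1.57 (1.06 to 2.09, adjusted p = 0.0024) and *Kdm6b* one of 0.87 (0.58 to 1.15, adjusted p = 0.0024). Each of the 3 was higher at day 5 in 4 of 4 lines and passed under all 11 alternatives, with an adjusted p of at most 0.0141. *Kdm3a*, also higher in 4 of 4 lines, had 0.37 (0.08 to 0.65, adjusted p = 0.043), and it did not pass on any of the 4 other scalings, without the block, without a filter on RPKM or when any line was left out. The other 6 members had adjusted p values from 0.073 for *Kdm5a* to 0.74 for *Kdm2a*.

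The ratio of related genes within a library does not change with a scaling factor. *Kdm5a* was 4.68 times *Kdm5b* in shControl cells at day 0 (95% interval 4.25 to 5.16) and 1.59 times at day 5 (1.49 to 1.70). In shKDM4D cells the ratio went from 4.46 (3.996 to 4.99) to 1.11 (1.04 to 1.18), and that of shNFIB cells from 4.34 (3.87 to 4.87) to 1.66 (1.52 to 1.82). The widest step was that of shMLL1 cells, from 8.56 (7.66 to 9.58) to 1.62 (1.54 to 1.70). The ratio was thus lower at day 5 in each line, and *Kdm5a* remained the higher gene by RPKM in all 8 libraries. In shKDM4D cells at day 5 this order rests on the exon lengths used, 14158 bases for *Kdm5a* and 16555 for *Kdm5b*. The reads there were 2029 and 2135. *Kdm7a* was 0.0715 times *Phf2* in shControl cells at day 0 and 0.378 times at day 5. In the 3 knockdown lines the steps were from 0.0775 to 0.221, from 0.0482 to 0.134 and from 0.0656 to 0.354.

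*Kdm3a* and *Kdm3b* were level at day 0 in shControl (ratio 0.987, 0.924 to 1.05) and shMLL1 cells (0.996, 0.946 to 1.05). At day 5 *Kdm3a* was 1.42 times *Kdm3b* in shControl cells (1.32 to 1.53) and 1.81 times in shMLL1 cells (1.72 to 1.89), with 1.56 times in shNFIB cells (1.44 to 1.69). In shKDM4D cells the ratio was 1.64 already at day 0 (1.52 to 1.78) and 1.56 at day 5 (1.45 to 1.67). *Kdm2a* was 1.46 to 2.57 times *Kdm2b*, with the lowest ratio in shMLL1 cells at day 0.

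**Figure D3:**
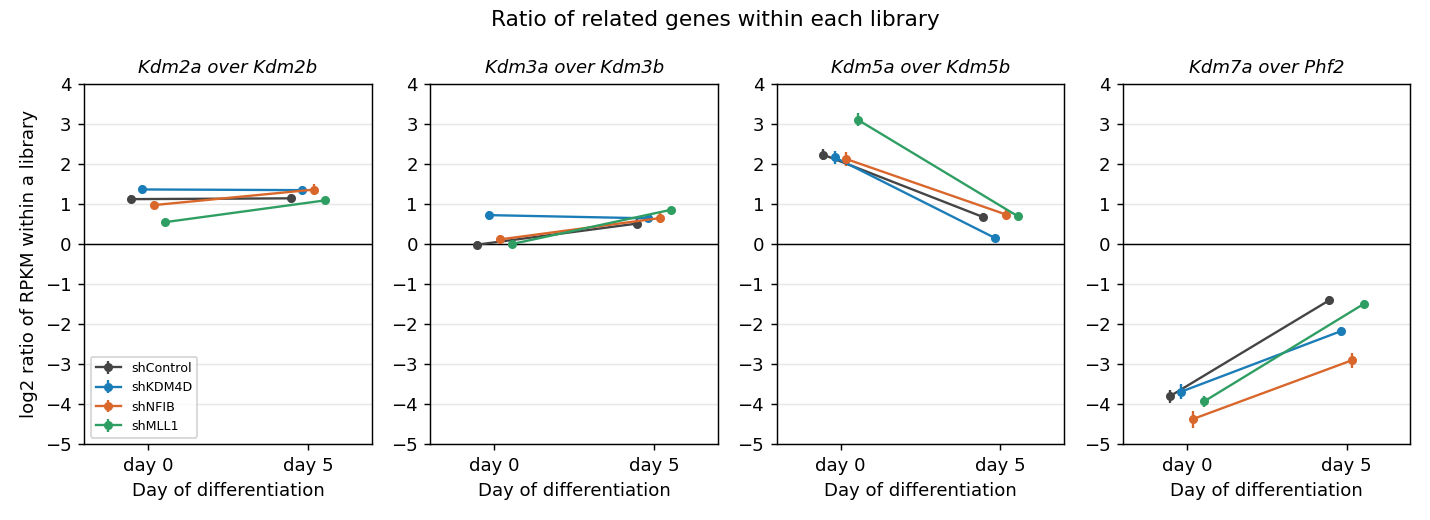
Log2 ratio of RPKM of related genes within each library at day 0 and day 5, with 1 colour per line and bars for the 95% counting interval. *Kdm5a* over *Kdm5b* comes down from at least 2.12 at day 0 to at most 0.73 at day 5, and *Kdm7a* over *Phf2* goes up in each line.

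The knockdown lines were next compared with shControl cells of the same day. All comparisons of one day share a control library, so each is given by its own values. At day 0 no member passed 2-fold in shKDM4D cells, against 6.24% of all genes, or in shNFIB cells, against 9.00%, and 1 did in shMLL1 cells, against 9.09%. That gene was *Kdm5b*, lower in shMLL1 cells with a log2 ratio of -1.05 (-1.25 to -0.85). It stayed lower on the other scalings (-1.26 to -0.66) but was within 2-fold on median-of-ratios and quantile scaling. At day 5 no member passed 2-fold in shKDM4D cells, against 6.44% of all genes, 1 did in shNFIB cells, against 11.2%, and none did in shMLL1 cells, against 9.28%. This was *Kdm7a*, lower in shNFIB cells with a log2 ratio of -1.48 (-1.67 to -1.30), and past 2-fold on each scaling tried (-1.63 to -1.44). At day 0 the same ratio was -0.23 (-0.50 to 0.03).

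**Figure D4:**
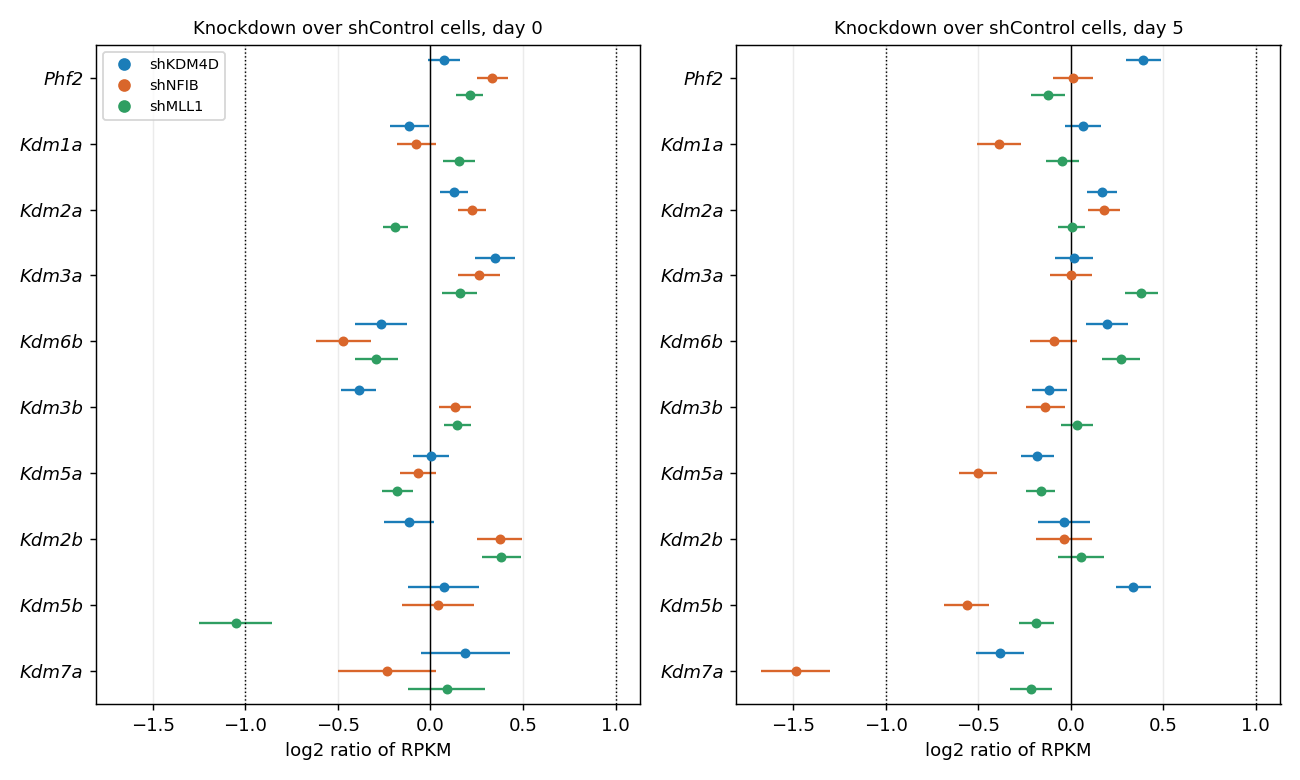
Log2 ratio of RPKM of each knockdown line over shControl cells at day 0 (left) and day 5 (right), with bars for the 95% counting interval and dotted lines at 2-fold. *Kdm5b* in shMLL1 cells at day 0 (-1.05) and *Kdm7a* in shNFIB cells at day 5 (-1.48) lie past the dotted line, and the other points lie within it.

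In shNFIB cells at day 5, *Kdm5b* (-0.56, -0.69 to -0.44), *Kdm5a* (-0.50, -0.60 to -0.40) and *Kdm1a* (-0.39, -0.50 to -0.27) were also below shControl cells, and they stayed so on the other scalings. At day 0 the intervals of all 3 ratios included 0. In shKDM4D cells at day 5, *Kdm5b* (0.34, 0.24 to 0.43) and *Phf2* (0.39, 0.30 to 0.49) were above shControl cells and *Kdm7a* (-0.38, -0.51 to -0.25) below. In shMLL1 cells at day 5 the highest ratio was that of *Kdm3a* (0.38, 0.29 to 0.47), which was 0.02 on the ratio to *Gapdh*.

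At day 0 *Kdm6b* was below shControl cells in each knockdown line (log2 ratios of -0.27, -0.47 and -0.29, with intervals of -0.41 to -0.13, -0.62 to -0.32 and -0.41 to -0.17), though not in shNFIB cells on the ratio to *Gapdh* (0.17). *Kdm2b* was above shControl cells in shNFIB (0.37, 0.25 to 0.50) and shMLL1 cells (0.38, 0.28 to 0.49) at day 0, and near them in all lines at day 5. *Kdm3b* was lower in shKDM4D cells at day 0 (-0.39, -0.48 to -0.29). On the scale of log2(RPKM + 0.1), the median ratio of the members at day 0 in shKDM4D, shNFIB and shMLL1 cells was 0.03, 0.08 and 0.11, beside 0.00, 0.02 and -0.07 over all genes. At day 5 it was 0.04, -0.11 and -0.02, beside 0.01, 0.09 and 0.07.

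The profile of *Kdm5b*, the member with the widest range, was compared with those of 9282 genes with over 1 RPKM in every library, *Kdm5b* itself being under 1 in one of them. The measure was the root mean square difference of the log2 levels over the 8 libraries after the mean of each gene was subtracted. The closest were *Rcn3*, a calcium-binding protein of the endoplasmic reticulum (0.198), *Itm2b*, a membrane protein also named BRI2 (0.203), *Fcgrt*, the neonatal Fc receptor (0.208), *Mmp19*, a matrix metalloproteinase (0.208), and *Rin2*, a regulator of RAB5 (0.252). *Rcn3* went from 67.7, 88.3, 59.5 and 26.8 RPKM at day 0 to 270.4, 289.3, 194.8 and 199.4 at day 5. As for *Kdm5b*, shMLL1 cells were lowest at day 0, which a choice by likeness over the same libraries favours. Among the members, *Kdm7a* was nearest to *Kdm5b* (0.533), with 200 genes nearer, followed by *Kdm6b* (0.736), with 691 nearer.

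**Figure D5:**
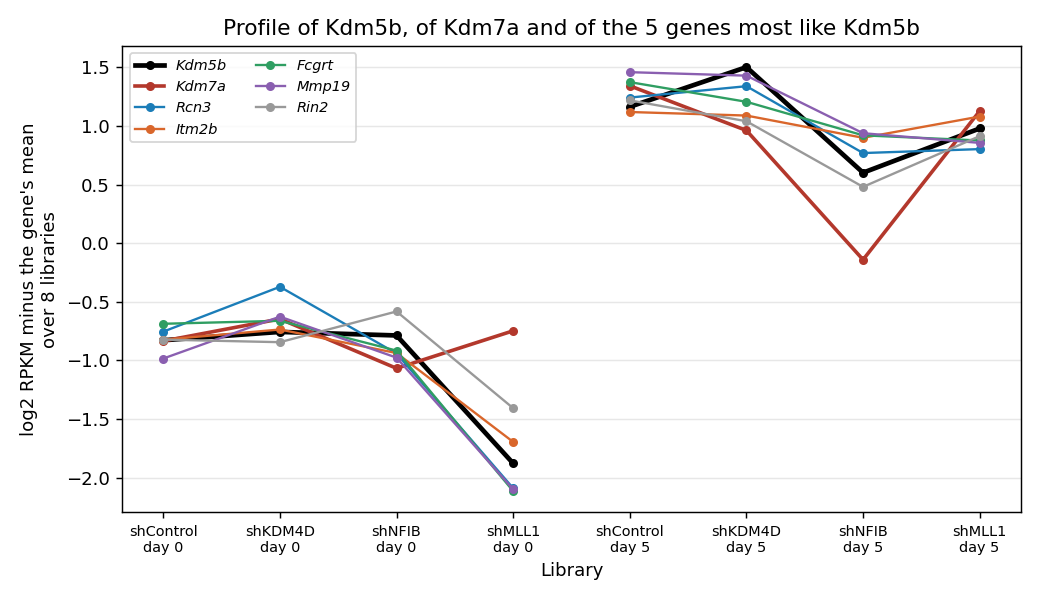
Log2 RPKM minus the mean of the gene over the 8 libraries for *Kdm5b*, *Kdm7a* and the 5 genes nearest to *Kdm5b*, with the 4 day 0 libraries on the left and the 4 day 5 libraries on the right. The 5 genes, chosen for their likeness to *Kdm5b* over these same libraries, have its low point in shMLL1 cells at day 0, which *Kdm7a* does not have.

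Other genes around these enzymes were examined by lists. Of 16 further demethylase genes, 13 had over 1 RPKM in at least 1 library, and *Kdm4d*, *Kdm5d* and *Uty* did not. From day 0 to day 5, *Kdm8* fell in shControl (log2 ratio -1.17, -1.78 to -0.59) and shKDM4D cells (-1.15, -1.95 to -0.38). These ratios rest on 33 against 102 and 22 against 44 reads. *Kdm8* was also lower, within 2-fold, in shNFIB (-0.65, -1.15 to -0.17) and shMLL1 cells (-0.74, -1.12 to -0.37). *Kdm4b*, an H3K9 demethylase, rose in shNFIB (1.29) and shMLL1 cells (1.32). In shControl cells *Kdm4b* had a ratio of 0.72 and did not pass 2-fold. At day 5, *Hr*, the gene of the hairless corepressor, was above shControl cells in shKDM4D (1.31) and shNFIB cells (1.41), and *Kdm8* in shNFIB cells (1.02, 0.38 to 1.69). The latter ratio rests on 55 against 33 reads and was within 2-fold on another scaling (0.95). The median change of this list from day 0 to day 5 was -0.13, 0.13, 0.09 and 0.06 on the scale of log2(RPKM + 0.1).

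All 11 partners of KDM1A in the CoREST complex had over 1 RPKM. *Rcor2*, a CoREST scaffold, rose in shKDM4D (log2 ratio 1.47), shNFIB (2.10) and shMLL1 cells (1.00, under 2-fold on the other scalings), while in shControl cells its ratio was 0.35. *Zmym3*, a zinc finger partner, rose in shKDM4D cells (1.26) and lay just under 2-fold in shNFIB and shMLL1 cells (1.00 in both), with 0.75 in shControl cells. The other 9 genes stayed within 2-fold in each line. The median change of the list was 0.34, 0.48, 0.24 and 0.31 in the 4 lines, above the medians of all genes given before. None of 9 partners of KDM2B in PRC1.1 passed 2-fold in any comparison, with medians between the days of -0.21, 0.06, 0.26 and -0.02. Beside both lists, 17.6% to 27.3% of all genes passed 2-fold between the days and 6.24% to 11.2% between lines of one day.

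The last list holds 19 enzymes that set the marks which the members remove, all over 1 RPKM in at least 1 library. Between the days 1 rose and 4 fell in shControl, shKDM4D and shMLL1 cells, and 1 rose and 3 fell in shNFIB cells. Beside the 21.6%, 21.2%, 27.3% and 17.6% of all genes past 2-fold in these lines, 5 or 4 of 19 is near the background. The gene that rose was *Ezh1*, an H3K27 methyltransferase, in each line (log2 ratios of 1.73, 1.52, 1.01 and 2.55). In shNFIB cells it was under 2-fold on the other scalings, and it was below shControl cells there at day 5 (-1.25). *Ezh2*, its relative, fell in shControl (-1.09), shKDM4D (-1.20) and shMLL1 cells (-1.22). *Nsd2*, an H3K36 methyltransferase, fell in all 4 lines (-1.65 to -1.51). The H3K9 methyltransferase *Suv39h2* fell in shControl (-1.63), shKDM4D (-1.69) and shNFIB cells (-1.12), *Suv39h1* in shControl (-1.21), shKDM4D (-1.20) and shMLL1 cells (-1.08), and the H3K4 methyltransferase *Setd1a* in shNFIB (-1.07) and shMLL1 cells (-1.53). The *Setd1a* ratio was -0.96 in shControl (-1.11 to -0.82) and -0.83 in shKDM4D cells, close to the limit. *Suv39h2* was also lower at day 5 in shMLL1 cells (-0.97, -1.20 to -0.75), within 2-fold. The same held in shNFIB cells for *Suv39h1* (-0.86, -1.04 to -0.68) and *Ezh2*. The 2-fold limit alone therefore does not show that the changes of these genes differ between the lines. *Suv39h2* at day 5 was above shControl cells in shNFIB (1.04) and shMLL1 cells (1.03), against 63 reads in shControl cells, and both ratios were within 2-fold on another scaling (0.96 and 0.67). On the ratio to *Gapdh*, *Kdm4b* in shNFIB cells (0.73) and *Kdm8* (-0.68), *Suv39h1* (-0.73) and *Ezh2* (-0.73) in shKDM4D cells were within 2-fold. The median change of this list was -0.07, 0.05, -0.35 and -0.28.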

How the data were processed

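RNA-seq values of 8 libraries, 1 per line and day, were used as the authors deposited them. The authors prepared stranded libraries, aligned them to the mouse build GRCm38 in CLC Genomics Workbench, and gave each gene as RPKM, with no replicate and no count column. Per the labels, each file belongs to 1 sample. RPKM divides by all mapped reads, so genes that take many reads in a library lower all others. The 2 ribosomal RNA-like genes AY036118 and CT010467.1 took 7.95% to 10.5% of the reads at day 0 and 3.07% to 3.62% at day 5.

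Read counts were recovered from RPKM with the exon lengths of GENCODE M21. Between 96.2% and 96.5% of values from 1 to 1000 reads lay within 0.02 of a whole number. Of the members, 9 gave whole reads at the annotated length, and for *Kdm2a* a length of 14294 bases instead of 14446 did so in all 8 libraries. Ratios were taken on RPKM with no pseudocount, and list medians on log2(RPKM + 0.1), over genes with over 1 RPKM in at least 1 library. Ratio intervals are exact (Clopper-Pearson) 95% intervals from the recovered reads. Their coverage was tested on reads simulated with counting error alone (Poisson), which cannot show the spread between libraries. Intervals of differences between changes are normal approximations to counting error and were not tested in this way. Python 3.11.15, numpy 2.4.6, pandas 2.3.3 and scipy 1.17.1 were used. With 1 library per condition no test was run between 2 conditions, and a gene was called when it passed 2-fold. The mean change between the days over the 4 lines was tested with limma 3.58.1 in R 4.3.3 on log2(RPKM + 0.1). The fit had day and line as terms, a mean-variance trend and Benjamini-Hochberg adjustment over 11513 genes. The day 0 and day 5 libraries are paired by the line named in the labels.

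The members and lists were chosen with earlier results of these data known. Named were all members, the targeted genes, genes of the other lists past 2-fold, and the 5 genes nearest to the member with the widest range. The alternatives were median-of-ratios scaling, quantile normalization, the ratio to *Gapdh*, a total without the 2 ribosomal RNA-like genes, 0.1 or 1 added to RPKM, and a limit of 1.5-fold.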

Additional observations from a re-analysis of the deposited data

Results flagged for a closer look

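For 2 members the change from day 0 to day 5 had opposite directions in different lines, with counting intervals on opposite sides of 0. *Phf2* had a log2 ratio of 0.10 in shKDM4D cells, against -0.22 in shControl, -0.55 in shNFIB and -0.56 in shMLL1 cells. *Kdm3b* had 0.21 in shKDM4D cells, against -0.33 in shNFIB and -0.17 in shMLL1 cells. With 1 library per line and day, the difference between lines was not tested against the spread of replicates, and all of these ratios are within 2-fold.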

How the results depend on the processing

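The comparisons of 2 libraries have no paired form and no library to leave out. The test of the days over the 4 lines is paired by line and was chosen after seeing the data, as was leaving out each line. It called 4 members, against 50.0% of all genes, and 3 without the replicate block, against 38.6%, where *Kdm3a* was lost. It called 3 to 4 with a line left out, against 38.2% to 41.6% of all genes. There *Phf2* (lower) was added without shKDM4D cells and *Kdm5a* (higher) without shNFIB cells. *Phf2* was also added without the ribosomal RNA-like genes. Of all genes it called 5752, and 3417 on the ratio to *Gapdh*. The count of members that do not overlap between the days was 4 to 6 with a line left out, against 44.6% to 51.9% of all genes. The number of members past 2-fold between the days in shNFIB cells was 1, and it was 2 on the ratio to *Gapdh* (*Kdm2b* and *Phf2*, both lower, in place of *Kdm5b*), 0 with 1 added to each RPKM and 3 at 1.5-fold. The number past 2-fold in shMLL1 over shControl cells at day 0 was 1, and it was 0 with median-of-ratios scaling, quantile normalization, or 0.1 or 1 added. In shNFIB over shControl cells at day 0 it was 0, and 1 on the ratio to *Gapdh* (*Kdm2b*). For these counts past a fold limit, the share of all genes on the alternative settings was not taken. The other counts stayed within 1.5 times of those reported. No ratio past 2-fold turned its direction. Of 100 member ratios, 24 changed sign on the ratio to *Gapdh*, whose own level ran from 159 to 326 RPKM, and 9 with median-of-ratios scaling, 8 with quantile normalization and 5 without the ribosomal RNA-like genes. Median-of-ratios scaling lowered the median change of all genes between the days by a log2 shift of -0.21 in shMLL1 cells and -0.11 in shNFIB cells. Without a filter on RPKM, 25.3% to 46.6% of genes passed 2-fold, against 6.24% to 27.3% with it, and 4.55% to 25.3% with a filter of 2 RPKM. The scalings of the count of genes that do not overlap between the days and of the differences between changes were chosen after seeing the data. Among the members the fewest reads were 189, for *Kdm7a* in shNFIB cells at day 0, and *Kdm8* of the other lists had as few as 22.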
